A study of Mus musculus with 6 samples.

Results

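The Rab GTPases are a family of small proteins that label the membranes of the cell and direct vesicle traffic between them. Each Rab switches between a GDP-bound form held in the cytosol by GDI and a GTP-bound form on the membrane. Exchange factors (GEFs) load GTP, GTPase-activating proteins (GAPs) end the active state, and effectors such as tethers and motors bind the active form. In macrophages Rabs are known for phagosome maturation, endosome recycling and delivery to the lysosome, and in granulocytes, mast cells and platelets a few of them are known for the release of secretory granules. The family was taken as every gene whose mouse symbol is Rab, a number and at most 1 letter and 1 further digit, which gave 59 of 51912 genes in the count files, all of them protein coding. Of these, 56 had at least 1 read in the 6 libraries and 50 passed the filter on low counts.

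The libraries come from the aorta-gonad-mesonephros (AGM), the part of the mouse embryo around the dorsal aorta where blood stem cells arise, at E10.5. All embryos carried the MacGreen transgene (Csf1r-EGFP), in which the promoter of the macrophage growth factor receptor gene Csf1r drives GFP, so the green cells include precursors that use this promoter as well as macrophages. GFP+ cells without surface mannose receptor (CD206, encoded by Mrc1) are called CD206neg and those with it CD206pos. The cells came from 3 independent litters, and each population has 3 libraries numbered 1 to 3, with 3 to 5 AGM pooled in a library. The labels do not say outright that a number marks a litter. It is read so here, and "litter 1" means the libraries numbered 1.

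The libraries held 16730846 to 18214283 reads in genes. Values are CPM, each gene's reads relative to the library's reads in all genes, scaled by TMM (which evens out composition), a log2 fold change is CD206pos minus CD206neg with its standard error (SE), and "called" means an adjusted p under 0.05 in edgeR's quasi-likelihood test with Benjamini-Hochberg adjustment over 12668 genes. Mrc1 was at 51.5 to 118.3 CPM in CD206neg and 1456 to 1790 CPM in CD206pos, which checks the labels. Of 10 macrophage markers all had reads in both groups, and their summed level was 4329 to 5478 CPM in CD206neg and 5463 to 8314 CPM in CD206pos, with 4 called higher and none lower. Of the 10, Lyz2 (1423 ± 396 against 943.8 ± 92.3 CPM) and Itgam (34.4 ± 8.56 against 17.8 ± 2.75 CPM; SD, n = 3) were above in CD206neg without overlap and were not called (edgeR adjusted p = 0.157 and 0.104). The libraries of both groups also held markers of other cell types, at levels that differed by list. The summed level of 11 granulocyte precursor markers was 1865 to 2865 CPM in CD206neg and 17.4 to 69.6 CPM in CD206pos, with 7 of 8 tested called lower and 6 of the 11, S100a8, S100a9, Ms4a3, Fcnb, Ngp and Ctsg, at 0 reads in CD206pos. Ngp (250 reads) and Ctsg (2 reads) had reads only in litter 2 of CD206neg and were below the filter. The sum of 10 blood progenitor markers was 749 to 1059 against 52.4 to 80.6 CPM, with 7 called lower and Kit at 0 reads in CD206pos. The sum of 10 endothelial markers was 164.6 to 284.4 against 63.1 to 95.1 CPM, with CD206neg above without overlap for 9 of them and Sox17 and Erg called lower. The erythroid sum of 10 markers went the other way, at 43.9 to 76.3 against 78.3 to 105.2 CPM, with none called. Tfrc was at 39.6 to 71.8 against 67.0 to 91.0 CPM, Epor was above in CD206pos without overlap and Klf1 below. For 10 mesenchymal markers the sum was highest in litter 3 of both groups, at 84.4 and 63.3 CPM, with none called. In bulk libraries, fewer cells of a type and less RNA per cell cannot be told apart, and the part of these markers in the results below was not tested.

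Transcripts of most Rab genes were present in both populations, and a small set made up most of the family's RNA. Compared per length, as CPM per kb of exon, Rab1b was highest, followed by Rab32, Rab1a, Rab7 and Rab31 in both groups. In CD206neg the means were 187.3 ± 9.95 for Rab1b, 147.4 ± 10.8 for Rab32, 108.9 ± 3.71 for Rab1a, 94.1 ± 13.7 for Rab7 and 67.3 ± 6.50 for Rab31 (CPM per kb, SD, n = 3). In CD206pos they were 235.4 ± 20.2, 225.8 ± 22.1, 189.3 ± 8.17, 118.1 ± 8.20 and 113.1 ± 13.4. Rab1b carries vesicles from the endoplasmic reticulum (ER) to the Golgi together with Rab1a, Rab7 marks late endosomes, and Rab32 serves lysosome-related organelles and mitochondria. Neighbours in this order overlapped between libraries for Rab1a and Rab7 and for Rab31 and Rab8a in CD206neg, and for Rab1b and Rab32 and for Rab7 and Rab31 in CD206pos, so these neighbours are not ordered beyond their spread. The next ranks were held by Rab8a, Rab18, Rab5c and Rab11a in both groups, and each overlapped the next but for Rab5c and Rab11a in CD206neg. The 10 highest members held 75.2% of the family's summed per-length level in CD206neg and 78.5% in CD206pos. Rab27a, a granule-docking Rab, held rank 10 in CD206neg, and Rab8b held it in CD206pos.

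**Figure D1:**
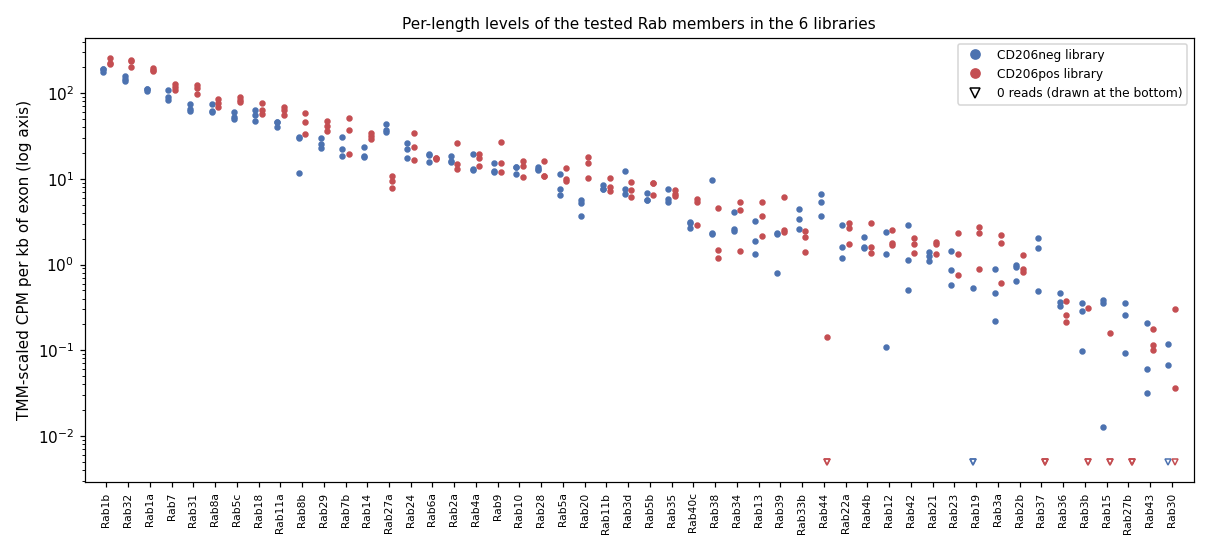
Each point is the TMM-scaled CPM per kb of exon (log axis) of 1 tested Rab gene in 1 library, blue for CD206neg and red for CD206pos, in order of the mean over the 6 libraries, and open triangles at the bottom stand for 0 reads. Rab1b and Rab32 lead the order, and the red points of Rab27a, Rab44, Rab37 and Rab27b lie below the blue ones or at 0 reads.

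The family's summed level was 3457, 3370 and 3767 CPM in CD206neg (litters 1, 2 and 3) and 4499, 4787 and 5089 CPM in CD206pos. All CD206pos libraries lay above all CD206neg libraries. Members of ER and Golgi transport held between 33.0% and 36.2% of the per-length sum in every library. Those of the early endosome and phagosome held 15.4% to 16.3% in CD206neg and 17.9% to 19.0% in CD206pos. Regulated secretion and lysosome-related organelles held 16.8% to 18.7% and 15.1% to 16.5%.

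The comparison of CD206pos with CD206neg asked which Rabs differ between the mannose receptor-positive and -negative cells. In CD206pos, Rab1a of ER export, the endosome and phagosome genes Rab5c, Rab14, Rab20 and Rab31, and Rab32 of lysosome-related organelles were higher, all but Rab20 by 1.53-fold to 1.74-fold. The granule secretion genes Rab27a, Rab27b, Rab37 and Rab44 were lower, Rab27a by 4.15-fold and the other three to few or no reads. In all, 6 of 50 tested members were called higher, 12%, where the background over all tested genes was 2.97%, and 4 were called lower, 8%, against 1.9%. In either direction this is 20% of the tested members against 4.87% of all genes. With library totals as the only scaling 2 were called higher and 4 lower. None of the 10 had groups that overlapped. Groups did not overlap for 18 tested members, 36%, against 24.6% of all tested genes, with CD206pos above in 13 and CD206neg above in 5. The median log2 fold change was 0.33 over the tested members and 0 over all genes, and it was 0.33 also with Rab37 and Rab27b, which had no read in CD206pos, set to their bounds. Filtered members passed on counts in either group, so these figures describe the tested members and not all 59.

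**Figure D2:**
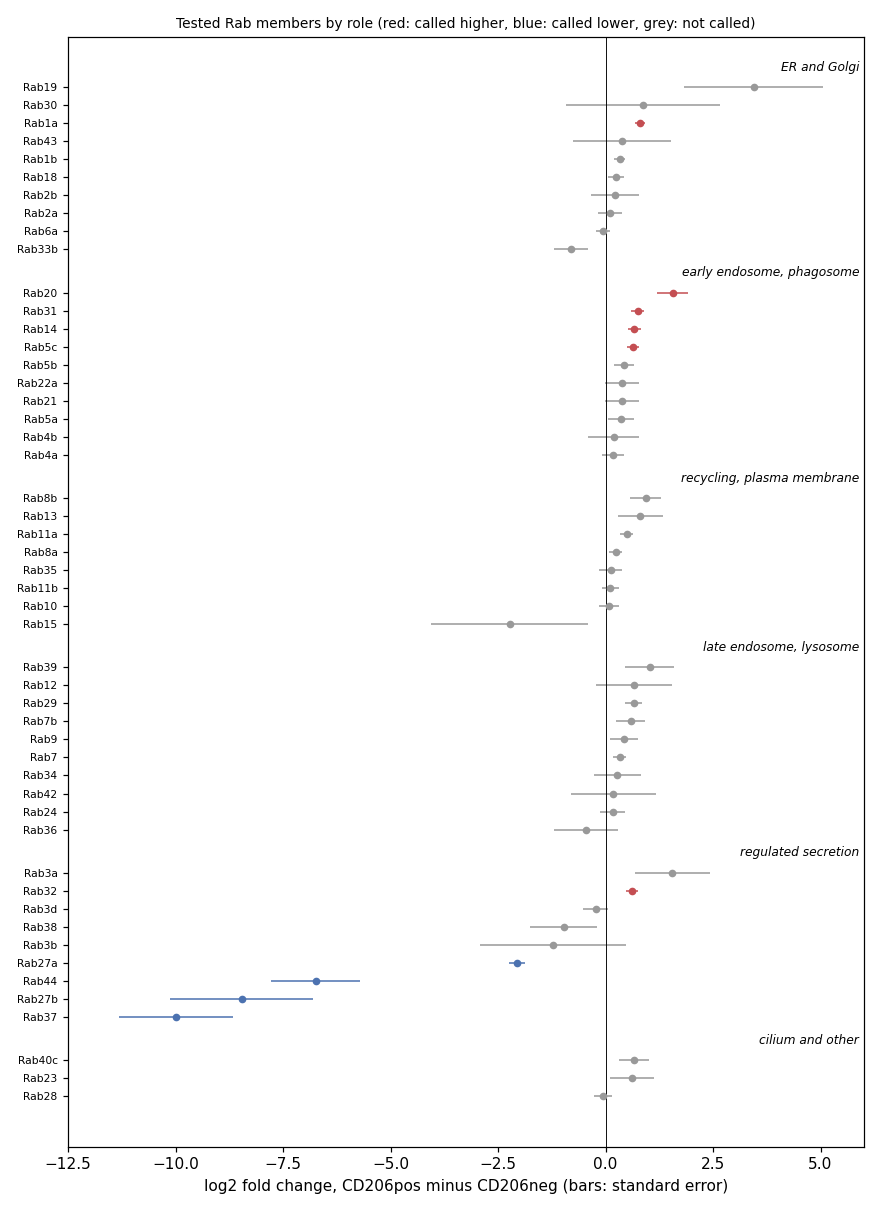
Each point is the log2 fold change (CD206pos minus CD206neg, horizontal axis) of 1 of the 50 tested Rab genes, with a bar of 1 standard error, grouped by role; red marks the 6 called higher, blue the 4 called lower and grey the others. The 4 called lower all lie in the regulated secretion group, where the positions of Rab37 and Rab27b depend on the fit's prior count because CD206pos had no read.

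In the ER and Golgi group, 1 of 10 tested members was called, 10% against 4.87% of all genes. A positive log2 fold change was found for 8 of these 10 and for 38 of all 50 tested members. Rab1a (ENSMUSG00000020149.17, GRCm38 chromosome 11, 20201432 to 20226856, plus strand), which is required for vesicle transport out of the ER, had levels of 419.8, 424.1 and 397.7 CPM in CD206neg (litters 1, 2 and 3, the order used throughout). In the CD206pos libraries it was at 755, 705.2 and 697.9 CPM. The groups lie well apart and each is narrow, and Rab1a rose 1.74-fold (log2 fold change 0.80 ± 0.12, edgeR adjusted p = 0.0071). The Rab1a call was lost only without litter 2 (adjusted p = 0.22) or litter 3 (adjusted p = 0.0874), where 2 libraries a group remain. Its paralog Rab1b, at 353, 322.6 and 355.3 CPM against 416.6, 405.1 and 474.3 CPM, had groups that did not overlap but was not called (log2 fold change 0.33 ± 0.13, edgeR adjusted p = 0.219). As a share of the pair's per-length level, Rab1a held 36.5%, 38.8% and 35.1% in CD206neg and 46.7%, 45.7% and 41.5% in CD206pos. This difference of 7.83 percentage points has an exact permutation p of 0.1 (two-sided, 3 against 3), the smallest this design can give.

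The other genes of this group were Rab18, a Rab of ER and lipid droplets, Rab2a, Rab2b, Rab6a, Rab19, Rab30, Rab33b and Rab43. Rab18 lay at 107.1 to 144.1 CPM in CD206neg and 129.5 to 174.7 CPM in CD206pos (adjusted p = 0.575). Rab6a, which returns membrane from endosomes and Golgi, was nearly level, at 59.2 to 72.1 and 62.8 to 65.2 CPM (adjusted p = 0.909). The Golgi and autophagy gene Rab33b was at 9.08 to 15.6 CPM in CD206neg and 5.01 to 8.78 CPM in CD206pos, without overlap and without a call (adjusted p = 0.347). Rab19, with 0, 0 and 0.84 CPM in CD206neg and 1.40, 3.72 and 4.27 CPM in CD206pos, had 15 and 162 reads in all, and its log2 fold change of 3.44 ± 1.61 had an adjusted p of 0.319. Rab2a was at 33.4 to 39.9 CPM and at 28.2 to 55.3 CPM, so that the spread of the CD206pos libraries covers the CD206neg range. Rab33a and Rab6b were below the filter, and the neuronal paralog Rab6b had 69 reads in CD206neg and 2 in CD206pos, a 33.0-fold difference (95% counting interval 8.80 to 278), and was called lower by DESeq2, which tests without this filter. For Rab43 and Rab2b, 75.4% and 64.0% of the exon bases overlap exons of other genes, where the authors' counting drops reads, so their low counts are uncertain. Rab30 had 32 reads against 54, of which CD206pos replicate 1 held 48 (adjusted p = 0.881).

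All 10 early endosome and phagosome members were tested, and all had a positive log2 fold change (median 0.40). A positive value was also found for 38 of the 50 tested members and 6280 of 12668 genes. Of the early endosome and phagosome members 4 were called higher, 40% against 2.97% of all tested genes. The roles were chosen with earlier results of these data known. Rab31 (ENSMUSG00000056515.8, chromosome 17, 65651726 to 65772752, minus strand), which works between the trans-Golgi network and early endosomes, had 229.3, 214.3 and 258.7 CPM in CD206neg. In the CD206pos libraries it was at 342, 404.3 and 433.6 CPM, so that every CD206pos library exceeded every CD206neg library. Rab31 rose 1.68-fold (log2 fold change 0.75 ± 0.145, edgeR adjusted p = 0.0245). Its close relative Rab22a, an early endosome Rab, was far lower, at 8.59, 11.4 and 20.9 CPM against 21.9, 19.2 and 12.5 CPM (adjusted p = 0.717), and held only 1.38% to 3.76% of the pair's per-length level in the 6 libraries.

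Rab5c (ENSMUSG00000019173.11, chromosome 11, 100715009 to 100738215, minus strand) is 1 of the 3 Rab5 forms that govern fusion of early endosomes. It was at 130.6, 115.7 and 110.6 CPM in CD206neg and at 196.8, 182.7 and 173.4 CPM in CD206pos. In both groups litter 1 was highest and litter 3 lowest, and Rab5c rose 1.55-fold (log2 fold change 0.63 ± 0.14, edgeR adjusted p = 0.0423). Rab5a, at 15.4 to 26.8 CPM in CD206neg and 22.5 to 31.1 CPM in CD206pos, and Rab5b, at 24.0 to 28.5 and 27.5 to 37.8 CPM, were not called (adjusted p = 0.624 and 0.415). Rab5c was the main form in both groups, and Rab5a held 13.4% ± 2.37 of the Rab5a and Rab5c per-length level in CD206neg and 11.4% ± 1.29 in CD206pos (SD, n = 3; exact permutation p = 0.3). With 3 libraries a group this test cannot go below 0.1, so it says nothing on whether the fold changes of Rab5c and Rab5a differ.

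Rab14 (ENSMUSG00000026878.16, chromosome 2, 35180205 to 35201120, minus strand), which links early endosomes and young phagosomes with the Golgi, was at 244.7, 248 and 316.3 CPM in CD206neg. In CD206pos it was at 428.6, 467.4 and 394.1 CPM, and the smallest gap lies within litter 3. Rab14 rose 1.595-fold (log2 fold change 0.67 ± 0.15, edgeR adjusted p = 0.0419). Rab20 (ENSMUSG00000031504.6, chromosome 8, 11453518 to 11478710, minus strand), a Rab of maturing phagosomes in macrophages, was at 7.34, 5.09 and 7.99 CPM in CD206neg and at 14.2, 21.2 and 24.9 CPM in CD206pos. It had the largest fold of the 6 genes called higher, 2.95-fold (log2 fold change 1.56 ± 0.35, edgeR adjusted p = 0.0433), at the lowest level of the 6. Of its exon bases 25.6% overlap E230013L22Rik on the opposite strand, and reads there are not counted. Rab4a and Rab4b of fast recycling and Rab21 of integrin uptake had overlapping groups (adjusted p = 0.832, 0.93 and 0.708). For Rab4b, 65.0% of the exon bases overlap exons of other genes, where reads are dropped. Its low counts (184 reads in CD206neg and 202 in CD206pos) and its share beside Rab4a are therefore uncertain.

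These 4 calls depended on the libraries. The Rab31 call was lost without any one of CD206neg replicates 1, 2 and 3 and CD206pos replicates 2 and 3 (adjusted p between 0.0513 and 0.135) and without any 1 litter (0.0588, 0.376 and 0.142 for litters 1, 2 and 3). The Rab5c call was lost without any one of the 6 libraries (0.0718 to 0.17), without any litter (0.0824 to 0.407), with library totals (0.0643) and with the looser filter (0.052). The Rab14 call was lost without CD206neg replicates 1 or 2 or any CD206pos replicate (0.0718 to 0.195), without any litter (0.0847 to 0.482) and with library totals (0.0783). The Rab20 call was lost with the litter as a block (0.0621), with library totals (0.0576), without any single library other than CD206pos replicate 1 (0.0949 to 0.171) and without any litter (0.0868 to 0.388). The direction of all 4 was positive under each of the 16 alternatives.

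**Figure D3:**
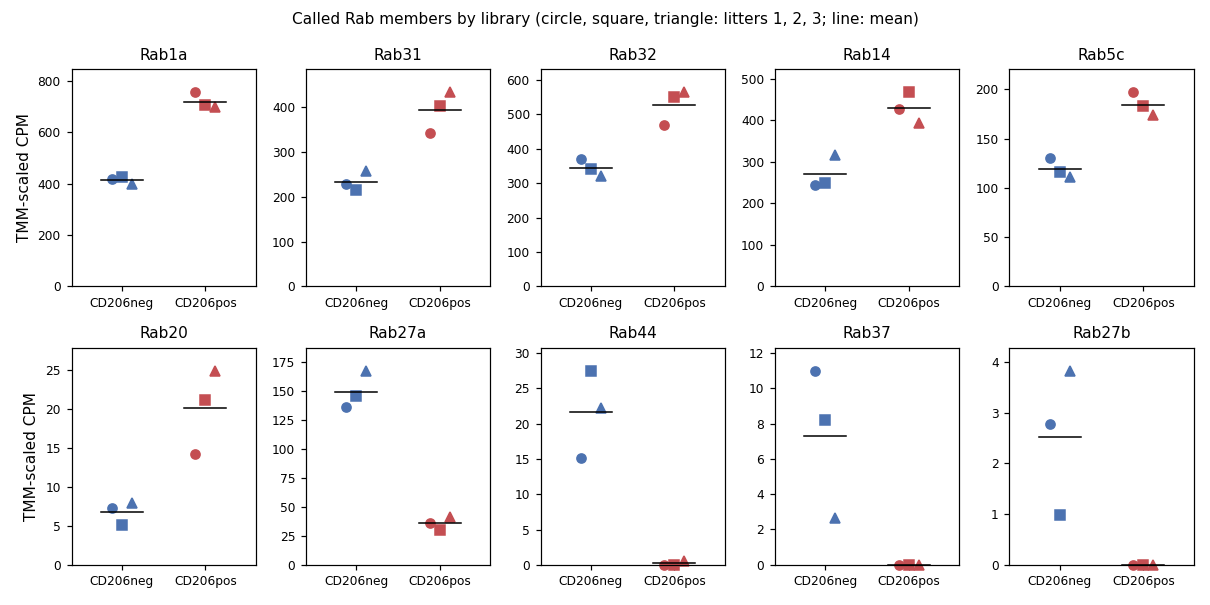
Each panel shows the TMM-scaled CPM (vertical axis from 0) of 1 called Rab gene in the 3 CD206neg (blue) and 3 CD206pos (red) libraries, with circle, square and triangle for litters 1, 2 and 3 and a line at the mean. In all 10 panels the groups do not overlap, and Rab37 and Rab27b are at 0 in every CD206pos library.

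None of the 8 tested members of recycling and constitutive delivery was called by edgeR, 2 had an unadjusted p under 0.05, and DESeq2 called 1 and limma-voom 0. Rab11a, the main Rab of recycling endosomes, was at 138.9, 121.2 and 139 CPM in CD206neg and 192.8, 164.5 and 204.6 CPM in CD206pos. Its groups did not overlap, with a 1.41-fold ratio of means and an edgeR adjusted p of 0.117, and DESeq2 called it (adjusted p = 0.033). Its paralog Rab11b overlapped between groups, at 46.1 to 51.9 and 44.5 to 61.9 CPM (adjusted p = 0.863).

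Rab8b, which with Rab8a delivers vesicles to the plasma membrane, was at 54.7, 146.1 and 142.4 CPM in CD206neg and 159.2, 215.7 and 279.7 CPM in CD206pos. In both groups litter 1 was lowest, and Rab8b was not called (log2 fold change 0.93 ± 0.36, adjusted p = 0.224) but was called once the litter entered as a block (adjusted p = 0.0378). Rab8a was more even, at 290.6, 283 and 346.5 CPM against 324.5, 356.8 and 402.3 CPM (adjusted p = 0.478). Its share of the 2 paralogs' per-length level was 84.3%, 66.2% and 71.1% in CD206neg and 67.4%, 62.6% and 59.3% in CD206pos (exact permutation p = 0.2). Rab10, Rab13 and Rab35, other Rabs of surface delivery and recycling, gave adjusted p values of 0.917, 0.504 and 0.892, and Rab15 had 63 reads against 12 (adjusted p = 0.627). The epithelial genes Rab17 and Rab25 were below the filter, with 17 and 0 reads in CD206neg and 0 and 22 in CD206pos, each from replicate 3. The sum of 10 epithelial markers was 12.4 to 36.3 CPM in CD206neg and 2.00 to 10.3 CPM in CD206pos and was highest in replicate 3 of both groups. Of the 10, Pax2 had no read in any library, Epcam and Cdh1 had none in CD206pos, and the other 7 had reads in CD206pos. Their part in the Rab17 and Rab25 reads was not tested.

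None of the 10 tested members of the late endosome, lysosome and autophagy group was called by edgeR, 1 had an unadjusted p under 0.05, and DESeq2 called 1 and limma-voom 0. Of the 10, 9 had a positive log2 fold change (median 0.38), as had 38 of all 50 tested members. Rab7, which drives endosomes and phagosomes to the lysosome, was at 234.6, 216.5 and 285.6 CPM in CD206neg and 287, 307.4 and 329.8 CPM in CD206pos. The CD206pos libraries lay above the CD206neg libraries by a narrow margin (1.25-fold, edgeR adjusted p = 0.299). Rab29, a Rab of lysosomes and the Golgi that recruits the kinase LRRK2, was at 37.9, 34.0 and 44.4 CPM against 53.3, 60.4 and 69.4 CPM. Rab29 had no overlap and a 1.57-fold ratio, with adjusted p values of 0.123 in edgeR and 0.0378 in DESeq2. Rab7b, a myeloid paralog of Rab7, varied with the litter in both groups, at 85.5, 103.4 and 141.9 CPM in CD206neg and 89.5, 170.3 and 237.1 CPM in CD206pos (adjusted p = 0.439). Rab9, which returns receptors from late endosomes to the Golgi, and Rab24, linked to autophagy, had overlapping groups (adjusted p = 0.576 and 0.861). Rab39 was at 2.36 to 7.01 CPM in CD206neg and 7.08 to 18.2 CPM in CD206pos (adjusted p = 0.424), and Rab12 had 0.33 CPM in CD206neg replicate 1 beside 3.99 to 7.61 CPM in the other 5 libraries. Rab34, Rab36 and Rab42 lay under 13 CPM in every library with overlapping groups (adjusted p = 0.871, 0.845 and 0.962), and Rab9b and Rab39b had no read in any library.

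In the group of regulated secretion and lysosome-related organelles, 5 of 9 tested members were called, 55.6% against 4.87% of all genes. Of these 4 were lower, 44.4% of the tested members against 1.9%, and 1 was higher, 11.1% against 2.97%. The median log2 fold change was -1.23, unchanged with bounds. Rab27a (ENSMUSG00000032202.11, chromosome 9, 73044854 to 73097629, plus strand), which docks granules and lysosome-related organelles at the plasma membrane, was at 136.1, 145.4 and 167.4 CPM in CD206neg. In CD206pos it was at 36.4, 30.1 and 41.6 CPM, and no library came near the other group. Rab27a fell 4.15-fold (log2 fold change -2.05 ± 0.19, edgeR adjusted p = 0.00117), the smallest p among the members. The Rab27a call was lost only without both libraries of litter 2 (adjusted p = 0.0754). Per length it held rank 10 of the family in CD206neg, as given above.

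Rab44 (ENSMUSG00000064147.6, chromosome 17, 29135056 to 29148980, plus strand), a large Rab with EF-hand domains known from granules of mast cells and other blood cells, was at 15.1, 27.5 and 22.2 CPM in CD206neg. In CD206pos it had no read in litters 1 and 2 and 0.58 CPM in litter 3, that is 1147 reads against 10. Rab44 fell 112.1-fold by the ratio of means (log2 fold change -6.74 ± 1.03, edgeR adjusted p = 0.00875). Dropping CD206neg replicate 2 ended the Rab44 call (adjusted p = 0.0743), as did dropping litter 1 or litter 2 (0.0564 and 0.176). Rab37 (ENSMUSG00000020732.13, chromosome 11, 115091431 to 115162236, plus strand), a Rab of mast cell secretory granules, was at 10.98, 8.21 and 2.64 CPM in CD206neg, 391 reads in all. It had no read in CD206pos and was at least 124.7-fold lower there, against 3 reads over the group (edgeR adjusted p = 0.0103). This bound covers counting error only, and the Rab37 call was lost with limma-voom (0.0575), without CD206neg replicate 1 or 2 (0.064 and 0.0757) and without litter 1 or 2 (0.0836 and 0.169).

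Rab27b (ENSMUSG00000024511.15, chromosome 18, 69979131 to 70141605, minus strand), the paralog of Rab27a known from platelets and mast cells, was low in CD206neg, at 2.77, 0.98 and 3.83 CPM (136 reads), and had no read in CD206pos. It was at least 43.4-fold lower in CD206pos (edgeR adjusted p = 0.0411). This call was lost with the litter as a block (0.106), with limma-voom (0.0665), without any one of the 6 libraries (0.0728 to 0.158) and without any litter (0.152 to 0.205). Rab27a held over 99% of the pair's per-length level in each library, with 99.3%, 99.8% and 99.2% in CD206neg and 100% in CD206pos.

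Markers of granule-bearing cells moved with these 4 genes. Beside the granulocyte precursor sum given above, 9 mast cell and basophil markers summed to 29.7, 43.0 and 77.4 CPM in CD206neg and 0, 0.63 and 0 CPM in CD206pos. Of these, Cpa3 and Hdc were called lower, and Mcpt8, Prss34, Mcpt4, Cma1 and Tpsb2 had no read in any library. The sum of 10 megakaryocyte and platelet markers was 59.2 to 87.2 CPM against 2.32 to 10.2 CPM, with Gp5 at 0 reads in all libraries. The order of the litters differed between genes: Rab37 was highest in litter 1, Rab44 in litter 2 and Rab27a and Rab27b in litter 3 of CD206neg. The granulocyte precursor sum was 1865, 2673 and 2865 CPM in these libraries. The part of such cells in the Rab27a, Rab27b, Rab37 and Rab44 results was not tested.

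Rab32 (ENSMUSG00000019832.5, chromosome 10, 10545002 to 10558265, minus strand) went the other way. It was at 371.2, 342.5 and 320.9 CPM in CD206neg and at 468.6, 551.4 and 564.2 CPM in CD206pos, without overlap. Rab32 rose 1.53-fold (log2 fold change 0.61 ± 0.13, edgeR adjusted p = 0.0373). Its call was lost with library totals (0.0599), without any single library other than CD206pos replicate 1 (0.083 to 0.195) and without litter 2 or 3 (0.447 and 0.277). Rab38, the paralog that shares duties with Rab32 in pigment granules and platelets, was low and highest in litter 1 of both groups, at 15.2, 3.59 and 3.66 CPM against 7.21, 1.89 and 2.31 CPM (adjusted p = 0.611). Rab32 made up 94.3% to 98.5% of the pair per length in CD206neg and 97.8% to 99.5% in CD206pos (exact permutation p = 0.3).

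The Rab3 genes, which control calcium-triggered release, were not called. Rab3d, the form of non-neuronal secretory cells, was at 27.7, 31.6 and 51.7 CPM in CD206neg and 25.6, 31.2 and 38.2 CPM in CD206pos (adjusted p = 0.789), with groups that overlapped. Rab3a was near the floor of detection in CD206neg, at 0.49, 1.04 and 1.97 CPM, and at 1.34, 4.00 and 4.97 CPM in CD206pos (adjusted p = 0.428). Its share of the Rab3a and Rab3d per-length level was 3.22% to 6.70% and 8.98% to 19.7%, without overlap (exact permutation p = 0.1). Rab3b had 47 and 19 reads (adjusted p = 0.806), Rab26 was below the filter with 40 and 20 reads, and Rab3c had none. Of the remaining members, the ciliary genes Rab23 and Rab28 and the ubiquitin ligase adaptor Rab40c were tested and not called (adjusted p = 0.639, 0.941 and 0.404), with 0 of the 3 under 0.05 before adjustment, and neither DESeq2 nor limma-voom called one. Rab40b had 2 and 7 reads.

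**Figure D4:**
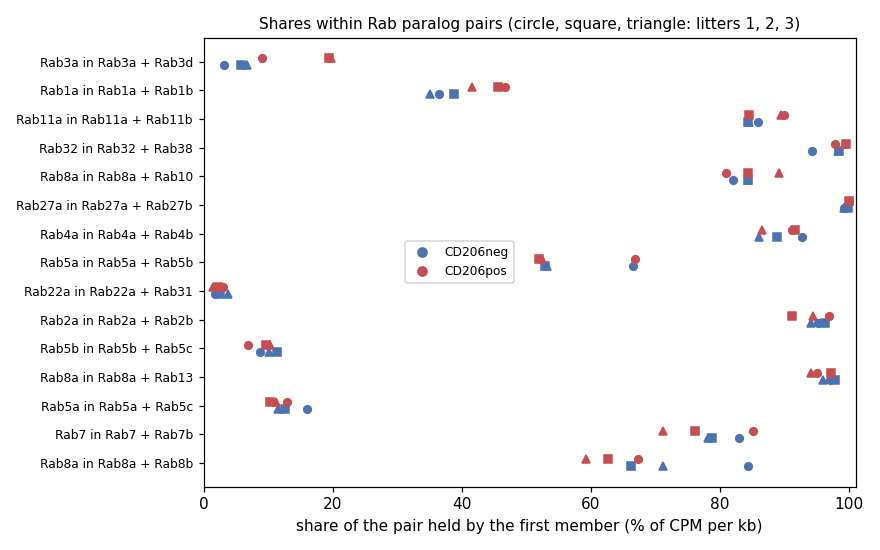
Each row is a pair of Rab paralogs, and each point is the share (percent of the pair's CPM per kb, horizontal axis) that the first-named member holds in 1 library, blue for CD206neg and red for CD206pos, with circle, square and triangle for litters 1, 2 and 3. The groups do not overlap for Rab1a with Rab1b, Rab3a with Rab3d and Rab27a with Rab27b, the last because Rab27b had no read in CD206pos.

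In all, 15 paralog pairs with both members tested were compared. The smallest exact permutation p of 0.1 was reached by 3 of them, Rab1a with Rab1b, Rab3a with Rab3d, and Rab27a with Rab27b, and after Benjamini-Hochberg adjustment over the pairs their p was 0.5. For Rab27a with Rab27b the separation follows from the lack of any Rab27b read in CD206pos. The difference in that pair was 0.60 percentage points. This exact test cannot pass a threshold of 0.05 with 3 libraries a group, whatever the shift.

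Of the machinery that acts on Rabs, 11 of 147 tested genes were called, 7.48% against 4.87% of all genes. Of these 8 were higher, 5.44% against 2.97%, and 3 were lower, 2.04% against 1.9%, and the median log2 fold change was 0.20. None of the 8 genes of escort, prenylation and GDI was called by edgeR, DESeq2 or limma-voom, and 1, Gdi2, had an unadjusted p under 0.05. Gdi2, the broadly expressed inhibitor that takes Rabs off membranes, was at 487.3 to 585.7 CPM in CD206neg and 633.7 to 684.7 CPM in CD206pos (adjusted p = 0.276).

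Of 33 tested GEF genes 3 were called higher, 9.09% against 2.97% of all genes, and none lower (median log2 fold change -0.11). Rab3il1, an exchange factor for Rab3a and Rab8, was the most abundant of the 3, at 496.1, 528.7 and 559.6 CPM in CD206neg and 774, 1129 and 1257 CPM in CD206pos, and rose 1.99-fold (edgeR adjusted p = 0.0199). Dennd2c, a DENN domain exchange factor, rose 3.05-fold (adjusted p = 0.023), and Sbf2, a DENN domain pseudophosphatase that acts on Rab21, rose 2.64-fold (adjusted p = 0.0489). The Rab3il1 and Dennd2c calls were each lost without any 1 library other than CD206pos replicate 1 (0.0616 to 0.125 and 0.0773 to 0.121) and without litter 2 or 3 (0.149 to 0.335 and 0.177 to 0.312). The Sbf2 call was lost with RLE scaling (0.0524), library totals (0.0678), without any 1 library other than CD206pos replicate 1 (0.0606 to 0.214) and without any litter (0.104 to 0.299). Hps1 and Hps4, which together form the exchange factor of Rab32 and Rab38, and Ankrd27, which acts on Rab21 and binds Rab32 and Rab38, were named after their values were seen. None of them was called (adjusted p = 0.803 for Hps1, 0.906 for Hps4 and 0.277 for Ankrd27).

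Of 37 tested GAP genes 2 were called higher, 5.41% against 2.97% of all genes. Lower calls were also 2, 5.41% against 1.9% (median log2 fold change 0.34). Tbc1d10c, a GAP of blood cells that also restrains Ras and calcineurin signalling, was at 24.6, 25.5 and 27.9 CPM in CD206neg and 3.05, 2.75 and 3.29 CPM in CD206pos. It fell 8.59-fold with little spread in either group (log2 fold change -3.10 ± 0.30, edgeR adjusted p = 0.00145), a call lost only without litter 2 (0.0811). Rabgap1l, a further TBC domain GAP, was at 9.08 to 19.1 CPM and 0.31 to 1.96 CPM and fell 10.46-fold (adjusted p = 0.0297), a call lost without any 1 library other than CD206pos replicate 1 (0.064 to 0.128) and without litter 2 or 3 (0.279 and 0.157). Tbc1d14, which binds Rab11 and slows autophagosome formation, rose 2.82-fold, from 77.0, 132.7 and 85.6 CPM to 220.2, 335.9 and 275.8 CPM (adjusted p = 0.0113). Its call was lost without CD206neg replicate 1 or 3 or CD206pos replicate 2 (0.0552 to 0.0786) and without any litter (0.0534 to 0.135). Tbc1d16, a GAP for Rab4, rose 2.303-fold (adjusted p = 0.0446), a call lost with the litter as a block (0.0627), with library totals (0.065), without any 1 library (0.0541 to 0.162) and without any litter (0.126 to 0.386).

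Of 63 tested effector genes 3 were called higher, 4.76% against 2.97% of all genes. Called lower was 1, 1.59% against 1.9% (median log2 fold change 0.26). Myo5a, the motor that carries Rab27a, Rab11 and other Rab-labelled vesicles on actin, was at 85.2, 109 and 113.4 CPM in CD206neg and 194.8, 248.5 and 221.3 CPM in CD206pos and rose 2.16-fold (edgeR adjusted p = 0.00875). The Myo5a call was lost without CD206neg or CD206pos replicate 2 (0.0552 and 0.0633) and without litter 2 or 3 (0.205 and 0.0874). Exoc6b, a subunit of the exocyst tether, rose 3.21-fold (adjusted p = 0.0246), and Appl2, a Rab5 effector of early endosomes, rose 1.93-fold (adjusted p = 0.0484). The Exoc6b call was lost without any 1 library other than CD206pos replicate 1 (0.0703 to 0.105) and without any litter (0.0672 to 0.208). The Appl2 call was lost with the litter as a block (0.0511), RLE scaling (0.0532), library totals (0.0783), without any 1 library (0.061 to 0.214) and without any litter (0.131 to 0.463). Hook1, which links endosomes to microtubules, fell from 192 reads to 1, 183.7-fold (95% counting interval 32.6 to 7294) (adjusted p = 0.0245). The Hook1 call was lost with the litter as a block (0.0681), limma-voom (0.083), without any 1 library (0.064 to 0.123) and without any litter (0.15 to 0.158).

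The effectors of Rab27 were looked at after their values were seen. Unc13d, which with Rab27a primes granules for fusion, was at 30.8, 33.0 and 19.7 CPM in CD206neg and 3.42, 6.81 and 12.1 CPM in CD206pos. The groups did not overlap, and the log2 fold change of -1.90 ± 0.47 missed the threshold (edgeR adjusted p = 0.0569). It was called with DESeq2 (0.00188), limma-voom (0.0298), the looser and the stricter filter (0.033 and 0.0243) and without CD206pos replicate 3 (0.0367). The synaptotagmin-like effector Sytl4 was low in both groups (adjusted p = 0.814), and Sytl3, Sytl5, Mlph and Myrip had no read in any library. Sytl1 and Sytl2 were below the filter, with 7 and 1 reads in CD206neg and 44 and 7 in CD206pos. Of the 7 Rab-like GTPases 6 were tested and none was called by edgeR, DESeq2 or limma-voom, with none at an unadjusted p under 0.05.

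Promoter sequence was examined for what called members share beyond their name. The RefSeq windows (GRCm38.p6, 250 bases before to 50 after each start) held 60 starts of 48 members. Rab18, Rab26, Rab27b, Rab2a, Rab30, Rab36, Rab37, Rab38, Rab44, Rab4a and Rab7b had no entry. Both strands were searched for CACGTG, an E-box whose longer form TCACGTGA contains it, for the Ets and PU.1 type element GAGGAAGT and for an AP-1 type element, TGA and TCA with any 1 base between them. CACGTG lay in 10% of member windows and 7.15% of 32851 windows of all genes, and TCACGTGA in 5% (3 of 60) and 0.97%. GAGGAAGT lay in 3.33% and 3.2%, and the AP-1 type element in 5% and 7.81%. The member windows were richer in G and C, at a median of 61.2% against 52.7% in all windows. The part of base composition in these shares was not tested. TCACGTGA was in the windows of Rab5a, Rab21 and Rab24, and none of these was called. Of the 7 called members with a window, Rab20 and Rab27a held CACGTG and Rab32 held GAGGAAGT, and Rab1a, Rab5c, Rab14 and Rab31 held none of the 4 elements in these windows. The windows with a match are shown 5′ to 3′ on the gene's strand with the match in capitals, Rab32 at chr10:10558158-10558457 (minus strand), Rab20 at chr8:11478591-11478890 (minus strand) and the second start of Rab27a, inside the gene, at chr9:73063898-73064197 (plus strand).
Rab32: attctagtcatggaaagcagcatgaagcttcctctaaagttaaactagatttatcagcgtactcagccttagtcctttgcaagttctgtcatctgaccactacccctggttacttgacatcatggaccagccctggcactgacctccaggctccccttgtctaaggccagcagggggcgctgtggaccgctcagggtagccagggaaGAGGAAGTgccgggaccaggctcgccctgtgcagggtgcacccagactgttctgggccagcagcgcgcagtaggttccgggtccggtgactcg
Rab20: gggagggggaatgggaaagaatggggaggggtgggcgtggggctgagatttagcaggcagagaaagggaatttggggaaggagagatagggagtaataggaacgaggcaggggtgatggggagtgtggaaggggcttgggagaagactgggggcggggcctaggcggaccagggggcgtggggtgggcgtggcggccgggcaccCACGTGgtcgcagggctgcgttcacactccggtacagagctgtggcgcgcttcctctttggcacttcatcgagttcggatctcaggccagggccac
Rab27a: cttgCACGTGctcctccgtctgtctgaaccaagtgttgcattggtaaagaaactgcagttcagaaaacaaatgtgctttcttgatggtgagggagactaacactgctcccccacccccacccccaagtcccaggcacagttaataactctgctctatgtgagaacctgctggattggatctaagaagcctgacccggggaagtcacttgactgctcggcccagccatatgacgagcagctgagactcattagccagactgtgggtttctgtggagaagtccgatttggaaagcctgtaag

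The Rab32 match begins 43 bases before the RefSeq start, the Rab20 match 46 bases before it and the Rab27a match 246 bases before it. By the gene coordinates given above, which come from the count files, the Rab32 and Rab20 matches also lie inside the gene. The matches are letters in a window, and nothing in the count data bears on binding there.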

How the data were processed

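The 6 deposited files hold raw whole-number read counts per gene, 1 library each, which the authors made with featureCounts 1.5.2 over exons of the GENCODE vM14 primary assembly, per the file headers, with no option for strand, pairs, multi-mapping or overlapping reads. Reads on exons shared by more than 1 gene are therefore dropped. Outside such overlaps, antisense reads on a gene's exons would be counted for that gene. STAR 2.3, mm10 and GRCm38.p5 are named in the submitters' processing notes. Per the labels' protocols, tissue was dissociated in collagenase (45 min, 37 degrees Celsius). Symbols came from GENCODE M21 for 51719 of 51912 gene identifiers, and 3 reads stand for 0.165 to 0.179 CPM.

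Counts were tested with edgeR 4.0.16 (R 4.3.3) after filterByExpr and TMM scaling, with all 6 libraries in 1 robust quasi-likelihood fit without a litter term. Levels per length used the exon length in the files. The alternatives were the litter block, RLE, library totals, a looser filter (at least 1 read), limma-voom with quality weights (limma 3.58.1), DESeq2 1.42.0, a stricter filter (5 CPM in 3 libraries), and dropping each single library or litter in turn. Scripts were tested on simulated data. Titles carry an AGM number and the series' design speaks of separate litters, so libraries with 1 number were read as 1 litter. Over 12668 genes their deviations from the group means correlated at 0.09, 0.04 and 0.18. The p-values of the main fit measure the spread of libraries within a group and do not use the pairing by number.

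The members, roles, gene lists and tests were chosen with earlier results of these data known. The rule for named genes took called members, members with an unadjusted p under 0.05, the 10 highest per length, the paralogs of called members and up to 6 called genes per list and direction. Intervals and floors cover counting error only, since reads carry no molecular identifiers here. Bounds of ratios are exact binomial (95%). Results of some single genes are not reported here.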

Additional observations from a re-analysis of the deposited data

How the results depend on the processing

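The directions of the 10 called Rab members and of the 11 called pathway genes were kept under every alternative that gave a value. The stricter filter removed Rab27b, Rab37 and Hook1 and gave no value for them. The counts that follow are numbers of genes called under each setting, which need not be those first called. Against 6 members higher and 4 lower, library totals gave 2 higher, and the stricter filter and limma-voom each gave 2 lower. Without a single library 1 to 4 members were higher, 1 to 3 were lower and 190 to 561 genes were called in all, against 617. Without litter 1, 2 or 3 there were 2, 0 and 0 higher, 1, 0 and 3 lower, and 307, 3 and 153 over all genes. With DESeq2 1417 genes were called. Against 8 pathway genes higher and 3 lower, DESeq2 called 15 and 7 of the pathway lists, limma-voom 13 higher, the looser filter 5 lower, the stricter filter 5 lower, and library totals 5 higher, and without a library or litter 0 to 8 were higher and 0 to 3 lower. Fewer libraries remained where a library or litter was left out, and the cause of these differences was not tested. With the replicate block (the litter as a term) 6 members were higher, 3 lower, 9 pathway genes higher and 2 lower, with 703 genes called in all. Rab20, Rab27b, Tbc1d16, Appl2 and Hook1 lost their call. Rab8b gained one, and so did some pathway genes that are not named here. No other member changed its call.

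Among genes not called, some log2 fold changes near 0 turned sign. Leaving out single libraries gave ranges of -0.299 to 0.037 for Rab28, -0.269 to 0.399 for Rab4b, -0.257 to 0.247 for Rab2a, -0.025 to 0.346 for Rab2b, -0.04 to 1.466 for Rab43, -1.73 to 1.713 for Rab30, -0.178 to 0.358 for Rab24, -0.088 to 0.631 for Rab34, -0.23 to 1.056 for Rab42, -0.069 to 0.204 for Rab10, -0.062 to 0.204 for Rab11b, -0.411 to 0.094 for Rab3d, -1.827 to 0.068 for Rab38 and -0.364 to 0.065 for Hps4. Values past 0 were also found with library totals for Rab10 (-0.009), and with limma-voom for Rab2a (-0.084) and Rab30 (-0.214), and without litter 1 for Rab28 (0.029), Rab22a (-0.031), Rab2a (-0.173), Rab42 (-0.09), Rab10 (-0.024) and Hps4 (0.142), and without litter 2 for Rab28 (0.039), Rab2b (-0.207), Rab43 (-0.353), Rab24 (-0.322), Rab34 (-0.028), Rab42 (-0.019), Rab10 (-0.07), Rab11b (-0.105) and Rab35 (-0.006), and without litter 3 for Rab4a (-0.06) and Rab4b (-0.112). Library totals lowered the members' log2 fold changes by a median of 0.09. The differences in paralog share (percentage points) that turned sign were Rab2a with Rab2b (1.039) and Rab4a with Rab4b (-0.5186) without litter 2, and Rab22a with Rab31 (0.4736) and Rab8a with Rab10 (-0.4552) without litter 3. The cause was not tested.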
